A study of Mus musculus with 20 samples.

Results

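A set of 9 genes for secreted factors and 1 of their receptors, known for vessel growth, vessel tone and stress signalling under low oxygen, was followed in mouse cortical neurons. They were chosen by symbol: Vegfa, Vegfb, Vegfc, Flt1, Adm, Apln, Angptl4, Stc1 or Stc2. Of these, 6 carry a row in the deposited tables, which list 14700 genes in all. Vegfc, Flt1 and Angptl4 carry no row in the tables used here, so they were not analysed and no level is given for them. Adm has a row in 3 of the 4 tables and the other 5 genes in all 4.

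The study asked how neurons without the circular RNA ciRS-7 (Cdr1as) respond to oxygen and glucose deprivation. Total RNA was sequenced from primary cortical neurons of embryonic day 15 mice, grown for 7 days and then held for 12 h in 1 of 2 conditions. Normoxic cultures (N) were in medium with 25 mM glucose and 0.2 mM pyruvate, and deprived cultures (OGD) were in medium without that supplement at 1% oxygen. Each of the 4 groups, N_WT and N_KO in normoxia and OGD_WT and OGD_KO under deprivation, comprised 5 libraries. The strain label C57BL/6N-Cdr1asem1Nikr, an edited Cdr1as allele, was the same on all 20 samples, also on those labelled WT. The labels do not give the sex of the embryos or how many were pooled per culture.

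Depth and labels were checked first. The libraries held between 7071506 and 16658618 reads assigned to the listed genes. The Cdr1as gene, in which circular and linear reads are not separated, stood at 49.7 to 121 CPM (read counts scaled to library depth) in the 10 WT libraries and at 0.144 to 1.48 CPM in the 10 KO libraries, so every library matched its genotype label. In all 4 groups the libraries of replicates 1 and 3 lay between those of replicates 2, 4 and 5. Replicate 3 was the highest or lowest of its group in 2.15% to 7.47% of genes and replicate 1 in 11.0% to 14.4%, against 57.4% to 64.1% for each of the other libraries. The reads of replicates 1 and 3 were fitted by a weighted sum of those of replicates 2, 4 and 5 of the group. Their median squared residual was 0.799 to 4.03 times that of counting noise, a ratio of variances. For replicates 2, 4 and 5, each fitted from the other 2 of them, this ratio was 17.1 to 41.0. The series text speaks of 5 biological replicates and no label describes pooled libraries. The cause was not tested. If they are not separate cultures, p-values over 5 libraries are too small, so the main results below are given also with replicates 2, 4 and 5 alone. With 3 libraries a group, limma took each gene's variance wholly from the trend over all genes. Calls with these 3 replicates therefore leave out the gene's own spread, and their p-values can be too small where that spread is wide.

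The genes fall into 3 signalling systems. VEGF-A is the main mitogen of endothelial cells, acts through the receptors Kdr (VEGFR2) and Flt1 (VEGFR1) with neuropilins as co-receptors, and is a textbook target of the hypoxia-inducible factors (HIF). Adrenomedullin (Adm) and apelin (Apln) are peptides that relax vessels, the first through the receptor Calcrl with Ramp2 or Ramp3 and the second through Aplnr. The stanniocalcins Stc1 and Stc2 are secreted glycoproteins linked to calcium and phosphate handling and to cell stress, and Angptl4 is a secreted inhibitor of lipoprotein lipase that low oxygen induces in many cells.

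The 250 bases upstream of the start were read for the genes that rose most and for Apln and Stc2, since HIF binds the core ACGTG or GCGTG. The sequences come from RefSeq (GRCm38.p6), with an entry for 7 of the 9 genes, and both strands were searched, so that capitals mark this core, read as ACGTG or as GCGTG, and the same letters on the opposite strand, read as CACGT or as CACGC. The first of these forms is also contained in the E-box, which other factors bind. The Adm window is chr7:110627407-110627656 (+), the Vegfa window chr17:46032378-46032627 (-), the Apln window chrX:48034854-48035103 (-), and the outer part of the Stc2 window chr11:31370258-31370311 (-).
Adm: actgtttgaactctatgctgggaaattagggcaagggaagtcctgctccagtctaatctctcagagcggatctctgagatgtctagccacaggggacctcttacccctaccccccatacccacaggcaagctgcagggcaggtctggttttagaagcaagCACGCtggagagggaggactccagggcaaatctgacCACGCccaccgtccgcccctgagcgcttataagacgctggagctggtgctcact
Vegfa: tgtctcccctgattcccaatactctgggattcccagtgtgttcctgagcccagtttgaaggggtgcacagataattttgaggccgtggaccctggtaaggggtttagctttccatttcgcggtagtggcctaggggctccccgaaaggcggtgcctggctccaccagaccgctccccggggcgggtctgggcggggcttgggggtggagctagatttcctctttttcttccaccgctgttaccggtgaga
Apln: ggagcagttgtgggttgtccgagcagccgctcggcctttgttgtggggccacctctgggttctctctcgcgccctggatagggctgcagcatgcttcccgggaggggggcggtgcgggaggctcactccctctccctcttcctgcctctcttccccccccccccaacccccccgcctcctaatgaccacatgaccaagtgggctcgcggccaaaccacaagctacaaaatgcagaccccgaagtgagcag
Stc2: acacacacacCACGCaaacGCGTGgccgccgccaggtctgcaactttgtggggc
Adm held 2 matches, whose first bases lie 90 and 54 bases before the start, and Stc2 held 2 at 240 and 231 bases. Vegfb also held 2 matches, at 237 and 81 bases, and Flt1 held 1 at 184 bases. The windows of Vegfa at its outer start, Apln and Vegfc held none, and a second Vegfa start inside the gene had 2 matches at 218 and 211 bases. Across 32851 RefSeq promoters, 38.6% of windows of this length held at least 1 match and 16.7% held 2 or more. Such a match is a description of the letters and not a measured binding site.

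Vegfa rose in both genotypes. The gene lies at chr17:46016993-46032369 (GRCm38, minus strand) with 8 exon blocks covering 4285 bases. In N_WT the libraries 1 to 5 held 54.3, 28.3, 44.4, 33.9 and 77.3 CPM, and in OGD_WT 435, 821, 425, 601 and 193 CPM. In N_KO they held 51.5, 50.5, 52.8, 90.7 and 22.5 CPM, and in OGD_KO 329, 372, 404, 393 and 450 CPM. All OGD libraries were above all N libraries of either genotype, and the OGD_WT libraries were spread much more widely than the OGD_KO libraries. The group means were 47.6 ± 19.3 CPM in N_WT and 495 ± 233 CPM in OGD_WT (SD, n = 5), then 53.6 ± 24.3 in N_KO and 389 ± 44.3 in OGD_KO. The log2 fold change was 3.29 (SE 0.29, limma adjusted p = 1.64e-08) in WT and 2.98 (SE 0.24, limma adjusted p = 6.1e-08) in KO neurons. With replicates 2, 4 and 5 alone it was 3.42 in WT and 3.10 in KO, both past the threshold of an adjusted p of 0.05. That limma call does not use the spread of Vegfa itself. The exact permutation p for these 3 against 3 libraries was 0.1 in each genotype, the smallest value it can take. By size of the fitted rise, which for genes with few reads depends on the prior count, Vegfa was number 11 of 14235 genes in WT and number 17 of 14375 in KO neurons. In bulk RNA, a change in the number of cells of a type and a change in RNA per cell cannot be told apart.

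**Figure D1:**
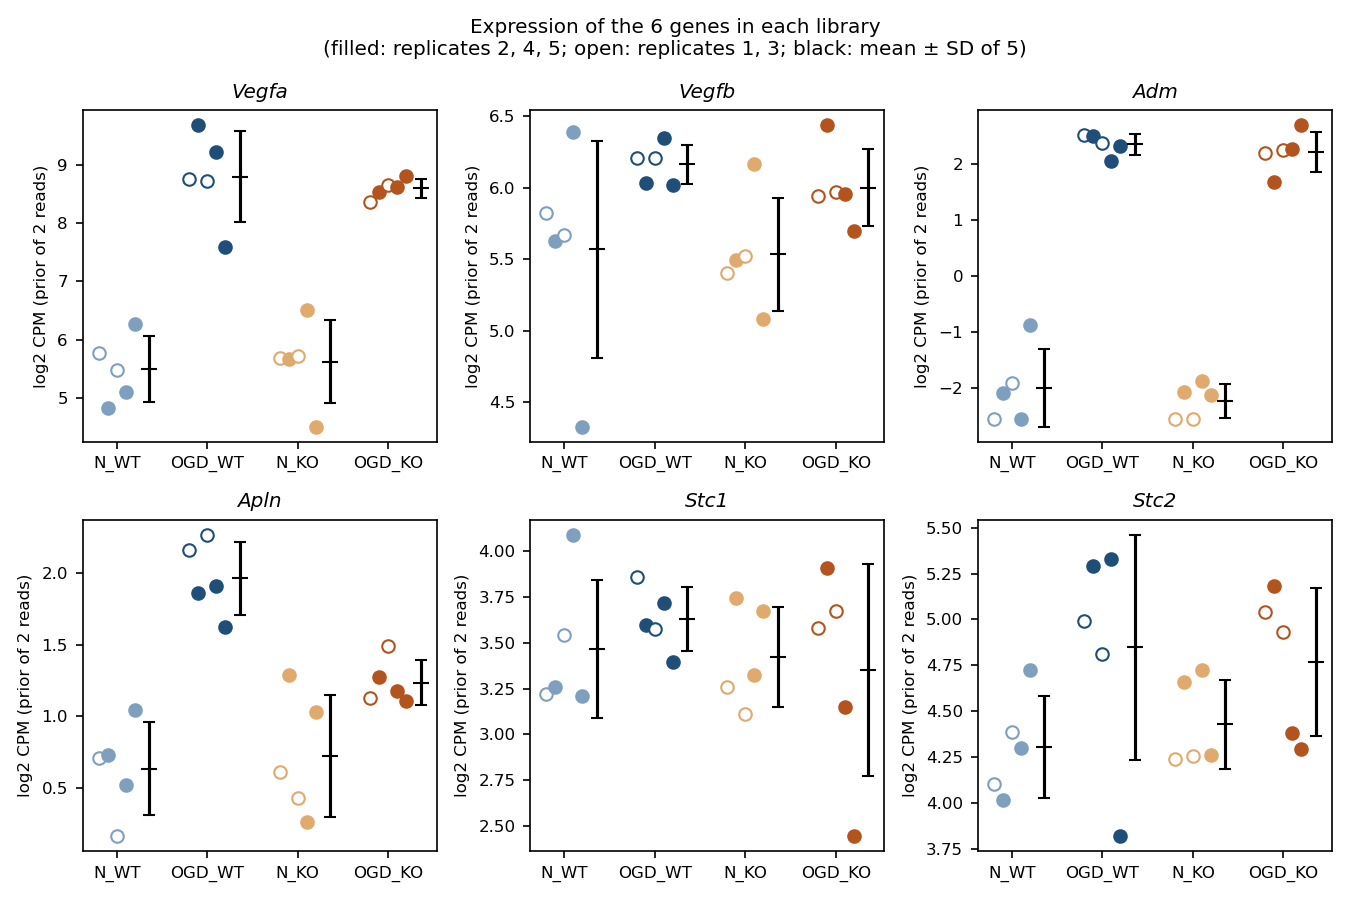
Expression (log2 CPM with a prior of 2 reads, y axis) of the 6 genes in every library of the 4 groups, with open circles for replicates 1 and 3 and a black bar for the mean ± SD of 5 libraries. Vegfa and Adm separate OGD from N in both genotypes, Apln lies higher in OGD_WT than in OGD_KO, and the Stc1 groups overlap.

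For Vegfa the difference between the N and the OGD library of 1 number varied widely. N and OGD libraries with 1 number carry the same genotype label and batch, but over all genes they did not deviate together (correlations of -0.72 to 0.03 in WT and -0.79 to -0.06 in KO). Each difference therefore describes a pair of single libraries. Within these pairs the log2 difference ranged from 1.32 in WT culture 5 to 4.85 in WT culture 2, and from 2.11 in KO culture 4 to 4.31 in KO culture 5. WT culture 5 had the highest Vegfa of its group in normoxia and the lowest under deprivation, while KO culture 5 had the lowest in normoxia and the highest under deprivation. The median over 11 hypoxia reference genes (glucose transporter Slc2a1, hexokinase Hk2, prolyl hydroxylase subunit P4ha1 and others) moved with it: it was 0.82 in WT culture 5 and 3.24 in WT culture 2. In KO neurons that median was 1.85 in culture 4 and 2.83 in culture 5, with the lowest value of 1.11 in culture 2, where Vegfa rose by 2.88. Without WT culture 5 the Vegfa response in WT was 3.78, and without WT culture 2 it was 2.91. The fits of OGD_WT replicates 1 and 3 took 34.4% and 40.3% from replicate 5, and 31.9% and 27.1% from replicate 2. Leaving out 1 number may therefore not remove all of its part in the group.

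**Figure D2:**
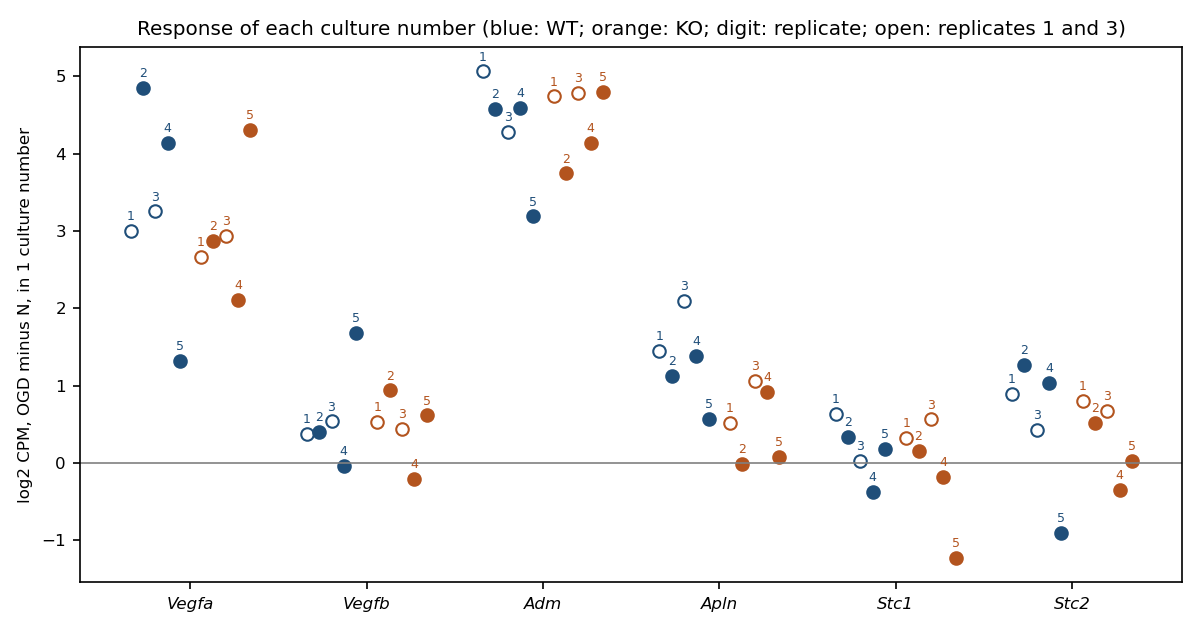
Log2 CPM under OGD minus log2 CPM under N (y axis) for each gene and culture number, WT in blue and KO in orange, with open circles for replicates 1 and 3. Every culture lies above 0 for Vegfa and Adm, while WT culture 5 is the lowest WT point for Vegfa, Adm, Apln and Stc2 and the highest for Vegfb.

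Adm went from almost no reads to a clear signal. The gene (chr7:110627661-110629820, plus strand, 4 exon blocks) had 0, 1, 1, 0 and 3 reads in the N_WT libraries and 0, 1, 0, 1 and 1 reads in N_KO. Under deprivation the libraries held 88, 60, 58, 32 and 50 reads in OGD_WT and 61, 39, 64, 40 and 38 reads in OGD_KO. The OGD levels were 3.95 to 5.55 CPM in WT and 3.02 to 6.26 CPM in KO neurons, far above the highest normoxic value of 0.379 CPM. Summed over the 5 libraries, the ratio of depth-scaled reads was 60.8 (95% exact interval 25.7 to 189) in WT and 89.6 (30.3 to 437) in KO neurons, intervals that cover counting error only and overlap widely. From replicates 2, 4 and 5 alone the ratios were 41.6 (15.9 to 155) and 58.4 (19.5 to 287). The fitted log2 fold changes of 3.43 (SE 0.21, limma adjusted p = 8.64e-11) and 3.39 (SE 0.19, limma adjusted p = 2.3e-09) depend on the prior count, which pulls so low a normoxic level upward. With a prior of 0.5 reads they were 5.58 and 5.85.

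Apln, the apelin precursor, rose in WT neurons, and its difference in KO neurons did not pass the test. The gene lies on the X chromosome (chrX:48025146-48034853, minus strand, 3 exon blocks) and was measured from 10 to 68 reads per library. The N_WT libraries held 1.46, 1.49, 0.951, 1.26 and 1.89 CPM and the OGD_WT libraries 4.29, 3.47, 4.64, 3.58 and 2.90 CPM. The N_KO libraries held 1.36, 2.27, 1.18, 1.03 and 1.87 CPM and the OGD_KO libraries 2.02, 2.24, 2.63, 2.09 and 1.98 CPM. The 2 WT groups did not overlap, whereas N_KO culture 2 stood above 4 of the 5 OGD_KO libraries. In WT the log2 fold change was 1.20 (SE 0.19, limma adjusted p = 2.81e-05), and with replicates 2, 4 and 5 alone 0.93 (limma adjusted p = 0.0337). In KO neurons it was 0.46 (SE 0.19, limma adjusted p = 0.0649), and 0.29 with replicates 2, 4 and 5 (limma adjusted p = 0.599). On the values as deposited, whose extremes are clipped, the KO value of 0.45 had an adjusted p of 0.0205.

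Vegfb, a VEGF family member with little known role in vessel sprouting, was higher under deprivation by a margin close to the threshold. It lies at chr19:6982473-6987651 (minus strand). The N_WT libraries held 56.5, 49.3, 50.8, 83.7 and 19.9 CPM and the OGD_WT libraries 73.6, 65.2, 73.8, 81.3 and 64.5 CPM, with N_WT culture 4 above every OGD_WT library. The N_KO libraries held 42.2, 44.9, 45.7, 71.7 and 33.7 CPM and the OGD_KO libraries 61.3, 86.3, 62.4, 62.0 and 51.8 CPM, again with N_KO culture 4 inside the OGD range. The log2 fold change was 0.57 (SE 0.24, limma adjusted p = 0.0577) in WT and 0.47 (SE 0.18, limma adjusted p = 0.0459) in KO neurons. The KO call was lost with the replicate number as a block (adjusted p = 0.0529) and with replicates 2, 4 and 5 alone (adjusted p = 0.345). The WT value had an adjusted p of 0.123 with these 3 replicates and of 0.0103 on the values as deposited.

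The stanniocalcins did not pass the test in either genotype. Stc2 (chr11:31357307-31370074, minus strand) held 17.01, 16.0, 20.7, 19.5 and 26.3 CPM in N_WT and 31.7, 38.9, 27.9, 40.0 and 13.9 CPM in OGD_WT. All OGD_WT libraries but that of culture 5 were above the N_WT libraries. The log2 fold change was 0.52 (SE 0.22, limma adjusted p = 0.0556) in WT, 0.45 with replicates 2, 4 and 5 (adjusted p = 0.337), and 0.88 without WT culture 5 (adjusted p = 2.12e-06). In N_KO Stc2 held 18.7, 25.1, 18.9, 26.3 and 19.0 CPM and in OGD_KO 32.8, 36.2, 30.3, 20.7 and 19.5 CPM, a log2 fold change of 0.34 (SE 0.18, limma adjusted p = 0.139) that was 0.08 with replicates 2, 4 and 5. Stc1 (chr14:69029238-69041804, plus strand) ranged from 9.09 to 16.9 CPM in N_WT, 10.4 to 14.4 in OGD_WT, 8.46 to 13.3 in N_KO and 5.28 to 14.9 in OGD_KO, so that all 4 groups overlapped. Its log2 fold change was 0.15 (SE 0.17, limma adjusted p = 0.509) in WT and -0.06 (SE 0.22, limma adjusted p = 0.855) in KO neurons, and 0.04 and -0.39 with replicates 2, 4 and 5.

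Counted together, 3 of 6 genes rose in WT neurons (Vegfa, Adm, Apln) and 3 of 6 in KO neurons (Vegfa, Adm, Vegfb), and none fell. Among all genes 44.3% were called in WT and 40.9% in KO neurons, with 21.6% and 21% called higher. The groups did not overlap for Vegfa, Adm and Apln in WT and for Vegfa and Adm in KO neurons, against 26.9% and 25.8% of all genes. With replicates 2, 4 and 5 alone, 3 and 2 of the 6 genes were called, against 16.9% and 16.3% of all genes. The median log2 fold change of the 6 genes was 0.89 in WT and 0.46 in KO neurons, beside -0.03 and 0.00 over all genes. Adm had 0 to 3 reads per normoxic library and no row in the comparison of N_KO with N_WT. Its listing in the treatment tables thus rests on its OGD reads. The rise, call and lack of overlap that Adm adds here are therefore not independent of its listing. With library totals as the scale, the median over all genes moved to -0.29 in WT and -0.27 in KO neurons and the genes called higher and lower went from 3069 and 3244 to 1636 and 5764 in WT, and from 3021 and 2863 to 1496 and 5315 in KO. On that scale Vegfa (3.01 and 2.69) and Adm (3.28 and 3.24) remained called in both genotypes and Apln in WT (0.96), Vegfb in KO (0.18) did not, and Stc1 in WT turned to -0.12.

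**Figure D3:**
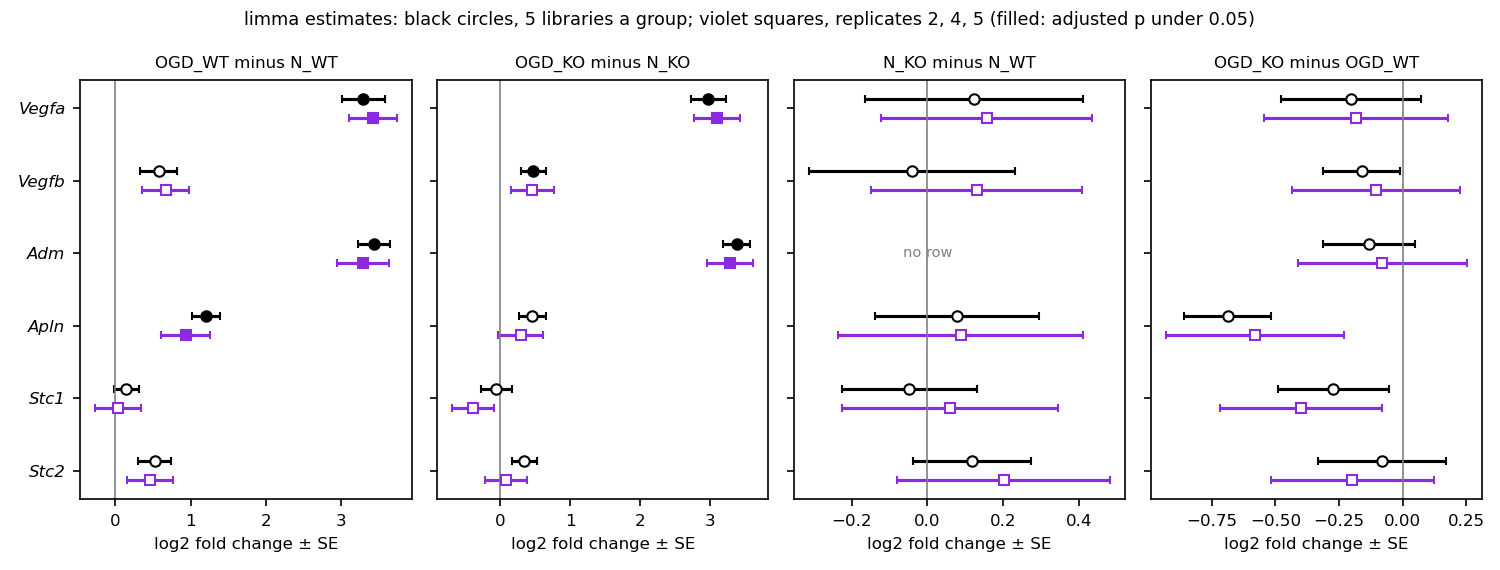
Log2 fold change ± SE (x axis) from limma for each gene in the 4 comparisons, with black circles for 5 libraries a group and violet squares for replicates 2, 4 and 5, filled where the adjusted p was under 0.05. Filled symbols occur only in the 2 comparisons of OGD with N, and in the comparison of OGD_KO with OGD_WT all 6 estimates lie below 0.

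Levels can be compared between genes only per length of transcript, here CPM per kilobase of exon in GENCODE M21. The annotation used for counting is not given, so these lengths may differ from those counted. In N_WT Vegfb was highest (32.4 ± 14.1, SD, n = 5), followed by Vegfa (11.1 ± 4.51), Stc2 (3.85 ± 0.778), Stc1 (2.67 ± 0.792), Apln (0.448 ± 0.110) and Adm (0.0665 ± 0.0970). In OGD_WT the order was Vegfa (116 ± 54.4), Vegfb (44.7 ± 4.34), Stc2 (5.89 ± 2.04), Adm (3.06 ± 0.395), Stc1 (2.93 ± 0.356) and Apln (1.20 ± 0.219). Vegfa thus passed Vegfb under deprivation and Adm came level with Stc1, from which it did not differ beyond their spread. In N_KO Vegfb stood at 29.7 ± 8.87, Vegfa at 12.5 ± 5.66 and Stc2 at 4.18 ± 0.726. There Stc1 stood at 2.55 ± 0.499, Apln at 0.489 ± 0.164 and Adm at 0.0284 ± 0.0278. In OGD_KO Vegfa stood at 90.9 ± 10.3, Vegfb at 40.4 ± 7.998, Stc2 at 5.39 ± 1.44, Adm at 2.83 ± 0.712, Stc1 at 2.54 ± 0.888 and Apln at 0.696 ± 0.0848.

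Between genotypes none of the genes passed the test. In normoxia 0 of 5 genes were called by limma, against 0.0353% of all genes, and none had an unadjusted p under 0.05 (1.81% of all genes) or was called by limma voom. The log2 differences KO minus WT lay between -0.05 for Stc1 and 0.12 for Vegfa, whose 95% interval ran from -0.48 to 0.73. Under deprivation 0 of 6 were called by limma or limma voom, against 0.0282% of all genes, and 1 of 6 had an unadjusted p under 0.05 (1.78% of all genes). All 6 estimates were below 0, as were those of all 11 hypoxia reference genes, whose median was -0.15 beside -0.01 over all genes. All 9 astrocyte markers tested (median -0.09) and all 7 oligodendrocyte lineage markers (median -0.09) were below 0 too, and their part was not tested. In normoxia 8 of the 9 astrocyte and all 7 oligodendrocyte lineage markers were also below 0 (medians -0.05 and -0.13). There, 9 of 10 hypoxia reference genes (median 0.16) and 3 of 5 genes of the set (median 0.08) were above 0. The Vegfa difference was -0.20 with a 95% interval from -0.78 to 0.37, and the Adm difference was -0.13 with an interval from -0.51 to 0.25.

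Apln was the gene with the unadjusted p under 0.05. All 5 OGD_KO libraries (1.98 to 2.63 CPM) lay below all 5 OGD_WT libraries (2.90 to 4.64 CPM). The groups did not overlap, in either direction, for 0.345% of all genes. The log2 difference was -0.69 (SE 0.17, unadjusted p = 0.000841, limma adjusted p = 0.917), and over the alternatives tried the adjusted p ranged from 0.0633 to 1. With replicates 2, 4 and 5 alone it was -0.58 and the groups again did not overlap, with an unadjusted limma p of 0.0985. In OGD_WT the highest Apln values were those of replicates 1 and 3, which for this gene lay outside the range of the other 3. The lower values rest on 12 to 37 reads per library in OGD_KO and 29 to 68 in OGD_WT.

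The difference between the responses was tested directly as an interaction, for genes listed in all 4 tables. None of 13688 genes was called by limma (0%), and 0.723% had an unadjusted p under 0.05. The Apln response was lower in KO by 0.82 on the log2 scale (-0.82, SE 0.31, unadjusted p = 0.0149, limma adjusted p = 1.00), and by 0.70 with replicates 2, 4 and 5 (unadjusted p = 0.173). The estimates were -0.33 (95% interval -1.27 to 0.61) for Vegfa, -0.13 for Vegfb, -0.24 for Stc1 and -0.21 for Stc2. On replicates 2, 4 and 5 alone these were -0.34 for Vegfa, -0.23 for Vegfb, -0.46 for Stc1 and -0.40 for Stc2. Adm, fitted with all genes of both treatment tables, had a difference of 0.10 (SE 0.43). An adjusted p above the threshold does not show that the responses were alike.

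Receptors and other vessel-related genes include members that rose and members that fell. Of 68 genes in the vessel-related lists (receptors, related ligands, vasoactive enzymes, growth factors and inhibitors of vessel growth), 37 had a row in each treatment table. Of these 37, 9 rose and 16 fell in WT, and 8 rose and 14 fell in KO neurons, with a median log2 fold change of -0.36 and -0.34. The share that rose was 24.3% in WT and 21.6% in KO, near the 21.6% and 21% of all genes called higher. The share that fell was 43.2% and 37.8%, beside 22.8% and 19.9% of all genes. With replicates 2, 4 and 5 alone the counts were 3 and 5 in WT and 5 and 9 in KO, and with library totals as the scale 4 and 24 in WT and 5 and 21 in KO. Between genotypes limma and limma voom called none of the 35 genes tested in either condition, and 1 in normoxia and 2 under deprivation had an unadjusted p under 0.05.

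**Figure D4:**
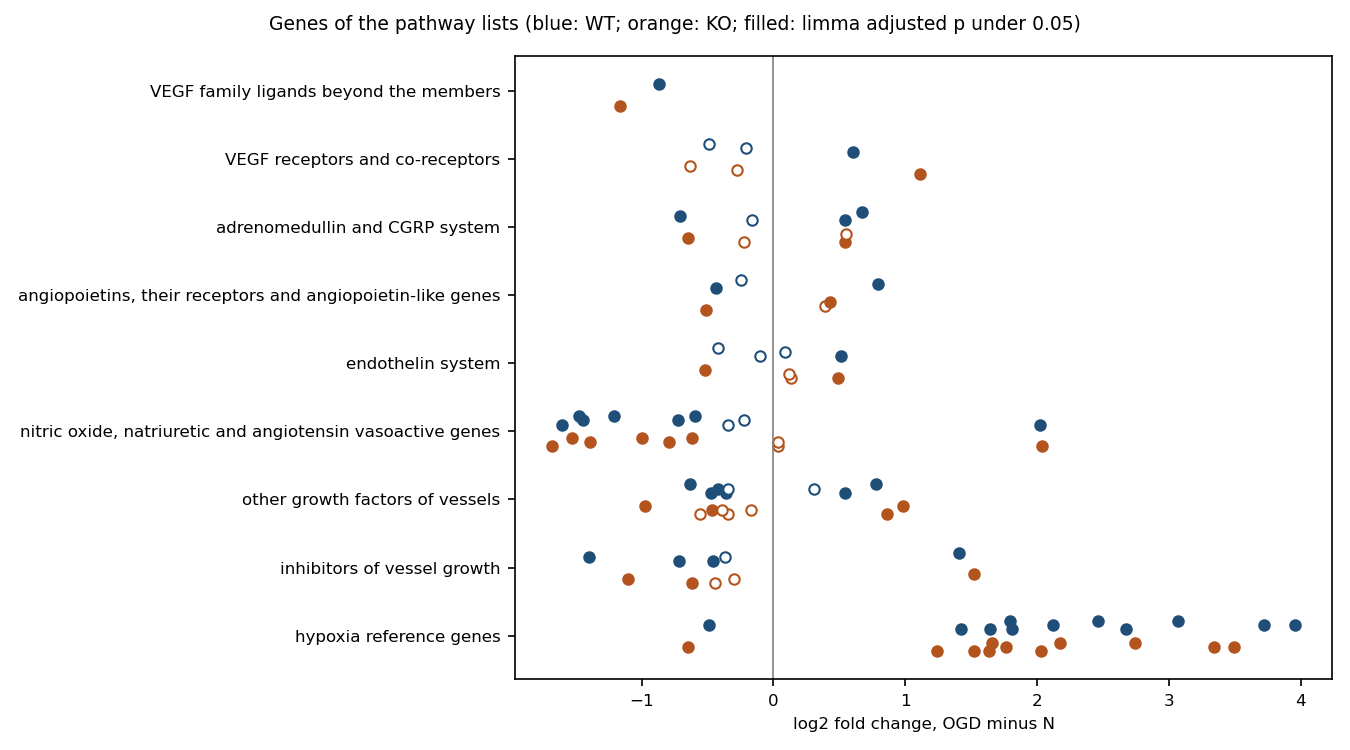
Log2 fold change OGD minus N (x axis) of each gene of the lists that has a row, WT in blue and KO in orange, filled where the limma adjusted p was under 0.05. The hypoxia reference genes lie between 1.24 and 3.95 apart from Ndrg1 below 0, whereas the vessel-related lists spread to both sides of 0.

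Among receptors, Kdr, the main signalling receptor of VEGF-A, rose from a very low level. Kdr has no row in the comparison of N_KO with N_WT, so its listing in the treatment tables rests on its OGD reads. It went from 0.765 to 1.35 CPM in WT (log2 fold change 0.60, limma adjusted p = 0.0311) and from 0.665 to 1.97 CPM in KO neurons (1.11, limma adjusted p = 0.000478). Of these calls the KO one held with replicates 2, 4 and 5 (adjusted p = 0.0180) and the WT one did not (0.436), nor did it with library totals as the scale (0.135). The co-receptors Nrp1 and Nrp2, which neurons use for semaphorins, were far more abundant at 50.2 and 142 CPM in N_WT. Their log2 fold changes were -0.21 and -0.49 in WT and -0.28 and -0.63 in KO, none past the threshold, though all were past it with library totals as the scale. Vegfd, the one other VEGF ligand with a row and named here after its values were seen, fell by 0.87 on the log2 scale in WT and fell by 1.16 in KO neurons, from 1.88 and 2.05 CPM. With replicates 2, 4 and 5 only the KO call was kept. Vegfd has no row in the comparison of OGD_KO with OGD_WT, so its listing in the treatment tables rests on its normoxic reads. Flt4 and Pgf carry no row in the tables used here.

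For adrenomedullin, the receptor Calcrl fell while its ligand rose. Its level went from 9.80 to 5.97 CPM in WT (-0.71, limma adjusted p = 0.00712) and from 9.34 to 5.83 CPM in KO neurons (-0.65, limma adjusted p = 0.0132). On replicates 2, 4 and 5 alone the adjusted p was 0.0501 in WT and 0.00928 in KO. Ramp1, which with Calcrl forms the receptor of the related peptide CGRP, rose by 0.67 in WT (limma adjusted p = 0.0236). In KO its value was 0.55 (limma adjusted p = 0.0536). Ramp1 has no row in the comparison of N_KO with N_WT, so its listing rests on its OGD reads. Of the partners that form adrenomedullin receptors, Ramp2 did not pass the test (-0.16 and -0.22) and Ramp3 carries no row. The atypical receptor Ackr3, which removes adrenomedullin and chemokines, rose by 0.55 in both genotypes (limma adjusted p = 0.0184 and 0.0307). The Ramp1 and Ackr3 calls were not kept with replicates 2, 4 and 5 or with library totals as the scale. Neither Aplnr nor Apela, the apelin receptor and its other ligand, carries a row in the tables used here.

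Of 9 genes of nitric oxide, natriuretic peptide and angiotensin signalling tested, 1 rose and 6 fell in each genotype. Over all genes 21.6% and 21% were called higher and 22.8% and 19.9% lower in WT and KO. The genes that fell numbered 4 in WT and 5 in KO with replicates 2, 4 and 5 alone, and 8 and 6 with library totals as the scale. On the first of these settings 16.9% and 16.3% of all genes were called in either direction. On the second, 5764 of 14235 genes in WT and 5315 of 14375 in KO were called lower. Hmox1, a haem oxygenase that makes carbon monoxide, rose from 8.03 to 34.2 CPM in WT (2.03, limma adjusted p = 1.97e-09) and by 2.04 in KO neurons. The angiotensin-converting enzyme gene Ace fell by 1.61 and 1.68, and Gucy1b1, a subunit of the nitric oxide receptor guanylate cyclase, fell by 1.48 and 1.52. These 3 calls held in both genotypes with replicates 2, 4 and 5 and with library totals as the scale.

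Among inhibitors of vessel growth, Thbs1 (thrombospondin 1) rose by 1.41 in WT and 1.52 in KO neurons, whereas the vasohibins Vash2 (-1.40 and -1.10) and Vash1 (-0.72 and -0.62) fell. Thbs1 and Vash2 kept their calls with replicates 2, 4 and 5, and Vash1 did not. For the counts here, 21.6% of all genes in WT and 21% in KO were called higher, and 22.8% and 19.9% lower. The shares of all genes in the other settings are those given with the nitric oxide list. Of 5 inhibitors tested, 1 rose and 3 fell in WT and 1 rose and 2 fell in KO. In each genotype the counts were 1 and 1 with replicates 2, 4 and 5, and 1 and 4 with library totals. Of 8 other growth factors, 2 rose and 4 fell in WT and 2 rose and 2 fell in KO. These became 1 and 0 in WT and 2 and 1 in KO with replicates 2, 4 and 5, and 1 and 5 in WT and 2 and 5 in KO with library totals. Fgf2 rose by 0.77 and 0.98, Hgf rose by 0.54 and 0.86, Pdgfa fell by 0.42 and 0.46, and Pdgfc fell by 0.47 in WT. Fgf2 kept both calls with replicates 2, 4 and 5 and Hgf its KO call, while the other calls of these 4 genes were lost.

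The remaining lists hold few tested genes, beside 21.6% and 21% of all genes called higher and 22.8% and 19.9% lower in WT and KO. Of 3 angiopoietin and angiopoietin-like genes tested, Angpt1, a Tek ligand, fell by 0.43 and 0.51, Angptl2 rose by 0.79 in WT, and Angptl6 rose by 0.43 in KO. Of 4 endothelin genes, the receptor Ednrb rose by 0.51 and 0.49 and 1 other gene fell in KO. None of these calls held with replicates 2, 4 and 5, and those of Angptl6 and Ednrb were lost also with library totals. Of the 11 hypoxia reference genes, 10 rose and Ndrg1 fell in both genotypes, and the 10 rises but not the falls held with replicates 2, 4 and 5. Slc2a1 rose by 3.95 and 3.50, Hk2 by 3.72 and 3.34, and P4ha1 by 3.07 and 2.75.

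Markers of other cell types were summed beside these results. For the counts below, 21.6% of all genes in WT and 21% in KO were called higher, and 22.8% and 19.9% lower. With replicates 2, 4 and 5, 16.9% and 16.3% of all genes were called in either direction. With library totals 1636 of 14235 genes were called higher and 5764 lower in WT. In KO these were 1496 and 5315 of 14375. Of 12 endothelial markers 1 (Mfsd2a) has a row in both treatment tables, while Pecam1, Cdh5 and Cldn5 carry none, and of 10 microglial markers none does. The 4 of 10 mural markers with a row summed to 11.5 to 16.2 CPM in N_WT and 16.2 to 21.4 in OGD_WT, and to 10.7 to 14.6 in N_KO and 13.2 to 20.5 in OGD_KO. Of these, 2 (Tagln and Acta2) were called higher in each genotype and 1 (Pdgfrb, -0.66) lower in WT. With replicates 2, 4 and 5 the 2 rises were kept and the fall was not. Tagln and Acta2 have no row in the comparison of N_KO with N_WT. The 9 of 10 astrocyte markers with a row summed to 1110 to 1386 CPM in N_WT and 1820 to 2260 in OGD_WT, and to 880 to 1553 in N_KO and 1490 to 2314 in OGD_KO. Of these, 6 were called higher and 1 (Gfap, -0.47) lower in WT, and 5 higher and 0 lower in KO. The astrocyte counts became 5 and 0 in WT and 2 and 0 in KO with replicates 2, 4 and 5. With library totals they were 5 and 1 in WT and 3 and 1 in KO. The 12 neuronal markers summed to 4419 to 5513 CPM in N_WT, 2954 to 5006 in OGD_WT, 4816 to 5010 in N_KO and 3252 to 4103 in OGD_KO, with 8 of 12 called lower in WT and 9 of 12 in KO. These counts were 5 and 5 with replicates 2, 4 and 5, and 11 and 11 with library totals. Of 7 oligodendrocyte lineage markers 1 was called higher and 2 lower in WT, and 3 higher in KO. None was called with replicates 2, 4 and 5, and with library totals 3 were lower in each genotype, 1 was higher in WT and none in KO. The part of these shifts in the levels of the vessel-related genes was not tested.

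The genes whose pattern was most like each gene were read from Pearson's r over the 20 libraries, among 14073 genes with a mean of at least 10 reads. The libraries share 2 treatments and replicates 1 and 3 lie between the rest, so r is a description. Vegfa was most like Chd2 (0.985), P4ha1 (0.985) and Dek (0.985), and Adm most like Hk2 (0.985), Snora75 (0.981) and Tnfaip3 (0.979). Stc2 was closest to Plagl1 (0.937), Itch and Taf1. Lower values were found for Vegfb with Ptger1 (0.889), Stc1 with Tor2a (0.895) and Apln with Gm43039 (0.867).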

How the data were processed

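RNA of 20 libraries was measured by RNA-seq after a stranded total RNA kit, per the labels' protocols. The authors deposited 4 tables, 1 per comparison of 10 libraries, of log2 CPM per gene. The build mm10 comes from the submitters' processing notes. The aligner, counter and annotation are not given in the sources used here. In each deposited table the lowest and highest of the 5 values of a gene in a group had been drawn inwards, to the 10th and 90th percentile (0.6 of the extreme and 0.4 of its neighbour). This was undone, after which at least 99.9% of values up to 500 reads were whole reads within 0.05, against 45.5% to 92.8% before. Rounded to whole reads, the counts were identical between tables in at least 99.97% of shared genes. Clipped groups look less spread than they are, so p-values from the values as deposited are too small.

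Within each table, limma 3.58.1 (R 4.3.3) with an intensity trend was run over all genes on the undone log2 CPM, with 2-sided Benjamini-Hochberg adjusted p under 0.05 as the call. The interaction used log2 CPM recomputed from the reads with median of ratios size factors and a prior of 2 reads over 13688 genes, and the culture as a block (consensus correlation -0.19). Levels in CPM are from that joint scale. The undoing of the clipping, the limma test and the interaction were each tested on simulated data. The simulated libraries were independent, with no replicates lying between others. Those runs therefore give no error rate of the tests for the libraries used here. The labels pair N with OGD libraries of a genotype by number and batch. Same-numbered libraries did not deviate together, with correlations of deviations of -0.72 to 0.03 in WT and -0.79 to -0.06 in KO.

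Named beside the 9 genes were receptors of the ligands and, per list, up to 3 called genes of largest change whose average log2 CPM was 1 or more. For likeness, the 3 genes of highest r were taken per gene. The genes and lists were chosen with earlier results of these data known. Alternatives were the deposited values, a filter on low values, priors of 0.5 and 2 reads, library totals or median of ratios as the scale, limma voom, no trend, a replicate block, batch as a term, batches 3.1, 3.2 and 3.3 alone, and each replicate left out. Replicates 2, 4 and 5 alone, and the interaction with all 14097 genes of both treatment tables, were added after seeing the data. With 3 libraries a group limma shrank the variance wholly to its trend, so those p-values do not use each gene's own spread.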

Additional observations from a re-analysis of the deposited data

How the results depend on the processing

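Vegfa and Adm in both genotypes and Apln in WT kept their direction and call under every alternative in which they were tested; the filter on low values removed Adm. The 3 calls in WT became 5 on the values as deposited and 5 with batch as a term, in both cases adding Vegfb and Stc2, and were 3 to 4 with a culture left out. The 3 calls in KO were 2 to 5 with a culture left out, with 5 without culture 5. As replicates 1 and 3 were fitted by sums of replicates 2, 4 and 5, leaving out 1 of these may not remove it wholly. Vegfb in KO lost its call without culture 1, 2 or 3, and Apln in KO gained one without culture 2 or 5. Stc2 gained one without culture 5 in WT, and without culture 4 or 5 in KO, and Vegfb in WT without culture 4. With the replicate block 3 members of the set were called in WT and 2 in KO. Between genotypes, where numbers do not pair cultures, the block left 0 called in both conditions; same-numbered libraries correlated at -0.10 to 0.23 in normoxia and -0.19 to 0.24 under deprivation, and 3 of 5 and 2 of 5 correlated best with their own number. The interaction without the block called 0.

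None of the reversed values was called. Stc1 in WT became -0.12 with library totals. In normoxia between genotypes, batch as a term gave 0.12 for Stc1, -0.26 for Vegfa and 0.089 for Vegfb. Batches 3.1 to 3.3 gave 0.051 for Stc1 and 0.072 for Vegfb, and replicates 2, 4 and 5 gave 0.060 and 0.13. Under deprivation batch as a term gave 0.011 for Vegfa. With 1 library left out the normoxic differences ranged from -0.053 to 0.19 for Apln, -0.13 to 0.11 for Stc1, -0.10 to 0.40 for Vegfa and -0.35 to 0.16 for Vegfb. Under deprivation they ranged from -0.33 to 0.040 for Stc2 and -0.50 to 0.013 for Vegfa, and Stc1 in KO ranged from -0.21 to 0.22. The interaction ranged from -0.39 to 0.054 for Stc1, -0.83 to 0.052 for Vegfa and -0.28 to 0.15 for Vegfb. The cause was not tested.

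Over all genes, 6313 calls in WT and 5884 in KO became 2411 and 2341 with replicates 2, 4 and 5, where fewer libraries enter. The calls between genotypes, 5 (Cdr1as, Cdr1os, Cdhr1, Gm14419, Gm2004) and 4 (Cdr1as, Cdr1os, Sp5, Zfp965), named after their values were seen, ranged from 2 to 29 and from 1 to 18. Adm and Apln in normoxia rest on at most 34 reads per library, which limits their precision.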
